A study of Homo sapiens with 9 samples.

Results

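The clustered protocadherins are 53 of the 20037 protein-coding genes compared here, taken as every protein-coding gene on chromosome 5 of GRCh38 whose symbol begins with PCDHA, PCDHB or PCDHG. They fall into 15 alpha, 16 beta and 22 gamma genes, in that order along the band 5q31. The mark measured over them was H3K9me3, the trimethylated form of lysine 9 on histone H3 that marks constitutive heterochromatin. The cells were clones of hTERT RPE-1, an established line of human retinal pigment epithelium kept in growth by telomerase. The LmnB1 group overexpressed lamin B1, a filament protein of the nuclear lamina, fused to mCherry, in the clones LmnB1_16 and LmnB1_6, and the control group overexpressed mCherry alone, in the clones mCherry_3 and mCherry_4. All 4 clones carried a stable overexpression construct and were given doxycycline at 0.05 ug/mL for 24 hours. Cut&Run, in which a nuclease tethered to an antibody releases marked DNA for sequencing, gave 2 biological replicates per clone and so 4 libraries per group. Each group thus rests on 2 clones, and a difference between clones cannot be told apart from a difference between constructs where both clones of a group stand together. The lists hold no RNA, so neither the cell type nor the expression of these genes could be checked.

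Clustered protocadherins are cadherin-like adhesion proteins of the cell surface, best known from neurons, where each cell uses its own combination of them and like combinations recognise each other. Each variable exon of the alpha and gamma genes has a promoter of its own and is spliced to constant exons shared by the whole cluster, so alpha genes share an end, as do gamma genes. Beta genes have no constant exons and stand side by side. PCDHAC1, PCDHAC2, PCDHGC3, PCDHGC4 and PCDHGC5 form the C-type, which is less variably chosen than the alternate genes. Promoter choice is known to involve CTCF, cohesin and DNA methylation. Unused genes are known to carry heterochromatin marks, and the H3K9 methyltransferase SETDB1 is known to be needed for repression of the clusters in neurons.

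Promoter sequences show what the genes of each cluster share. Of the 53 genes, 47 were found in the RefSeq promoter table of GRCh38.p14, in which a promoter runs from 250 bases before to 50 bases after the gene start. PCDHA3, PCDHA13, PCDHB6, PCDHB11, PCDHGA12 and PCDHGC5 are named only. The word CGCT, the core of the conserved sequence element of these promoters, was searched on both strands and found in 12 of 13 alpha, 14 of 14 beta and 20 of 20 gamma promoters, but also in 69.4% of all 27305 promoters. For each cluster the longest word present in at least 50% of its promoters was then taken, and all 3 of these words contain CGCT. CACATGATGTCGCT was found in 7 of 13 alpha promoters, in no beta or gamma promoter and in 0.0256% of all promoters on either strand. GGTGGCGCTGCAGG was found in 8 of 14 beta promoters and in 0.0293% of all promoters. GCGCCGCTG was found in 10 of 20 gamma promoters and in 1.25% of all promoters. The whole promoters of PCDHA8, the alpha gene with the highest difference between constructs, and of PCDHB15, the gene under a domain in all 8 libraries, are shown first, with the word of their cluster in capitals. Shorter stretches around the word then show what the genes of a cluster share. All lie on the + strand of chromosome 5.
PCDHA8 promoter, chr5:140840937-140841236: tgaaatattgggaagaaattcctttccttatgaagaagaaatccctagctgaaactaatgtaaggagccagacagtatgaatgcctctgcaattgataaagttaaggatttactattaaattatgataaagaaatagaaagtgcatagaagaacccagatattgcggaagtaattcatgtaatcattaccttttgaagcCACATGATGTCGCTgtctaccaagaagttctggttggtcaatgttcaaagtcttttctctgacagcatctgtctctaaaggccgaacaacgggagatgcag
PCDHB15 promoter, chr5:141245145-141245444: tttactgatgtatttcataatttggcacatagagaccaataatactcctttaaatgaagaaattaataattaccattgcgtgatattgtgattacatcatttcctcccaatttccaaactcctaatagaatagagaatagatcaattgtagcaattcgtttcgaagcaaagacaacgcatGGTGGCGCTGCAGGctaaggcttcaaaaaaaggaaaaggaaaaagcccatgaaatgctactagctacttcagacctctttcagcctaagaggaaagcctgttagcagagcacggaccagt
PCDHA1, chr5:140786076-140786121: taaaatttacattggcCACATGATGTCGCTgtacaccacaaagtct
PCDHA7, chr5:140834162-140834207: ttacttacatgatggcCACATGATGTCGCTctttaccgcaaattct
PCDHB5, chr5:141135174-141135219: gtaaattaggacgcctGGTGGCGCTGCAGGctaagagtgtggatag
PCDHB16, chr5:141182305-141182350: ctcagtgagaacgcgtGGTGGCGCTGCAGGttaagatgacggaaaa
PCDHGA1, chr5:141330399-141330439: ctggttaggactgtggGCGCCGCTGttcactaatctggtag
PCDHGA11, chr5:141420968-141421008: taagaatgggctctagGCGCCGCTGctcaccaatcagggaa

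The word began a median of 65 bases before the gene start in alpha promoters (range 48 to 91), 54 in beta (2 to 84) and 68 in gamma (44 to 99). CpG, the dinucleotide that carries DNA methylation, occurred 15 to 27 times in the 300 bases of the 4 C-type promoters in the table, with a median of 20.5. The other 11 alpha promoters held 3 to 9 CpGs (median 7), the 14 beta promoters 5 to 12 (median 7.5) and the other 18 gamma promoters 2 to 16 (median 6.5), and the median over all promoters was 14. The C-type and the other gamma promoters overlapped, since the alternate gene PCDHGB6 had 16 and the C-type gene PCDHAC2 15. PCDHAC1 had the most, 27, shown here with each CpG in capitals.
PCDHAC1 promoter, chr5:140926049-140926348: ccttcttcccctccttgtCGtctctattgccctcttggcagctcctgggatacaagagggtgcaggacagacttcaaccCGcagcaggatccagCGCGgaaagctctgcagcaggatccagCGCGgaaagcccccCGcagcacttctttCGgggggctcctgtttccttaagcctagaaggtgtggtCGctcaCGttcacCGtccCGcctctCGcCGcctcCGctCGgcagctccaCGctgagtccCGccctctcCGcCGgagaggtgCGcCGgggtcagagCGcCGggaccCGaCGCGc

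Each library came as a list of H3K9me3 domains with the reads, the input reads and the authors' log2 enrichment over input for each domain. The lists held 5366 to 11322 domains and 2855378 to 10321442 H3K9me3 reads inside them. Only domains above a log2 enrichment of 0.6 are listed, so a stretch that no list holds may still carry the mark below that level. Depth relative to input ran from 0.880 to 1.01 with LmnB1 and from 0.421 to 0.859 with mCherry, so depth and construct cannot be told apart. LmnB1_6 replicate 2 and mCherry_4 replicate 2 stood apart with the lowest pooled log2 enrichment, 0.71 and 0.72 against 0.86 to 1.14 in the others, and they also had the least covered genome. Over domains with identical coordinates the counts of both mCherry_3 replicates differed by no more than sampling noise (chi-square p = 0.197 over 229 domains). The same held for 1 pair of different clones, LmnB1_6 replicate 2 and mCherry_3 replicate 2 (chi-square p = 0.102 over 47 domains), while the other 26 pairs of libraries differed (chi-square p at most 0.0380). The lists of the mCherry_3 pair differed, so they were kept as 2 samples, and values with both counted as 1 sample are given below. Beta genes are close copies of each other, and the sources used here do not say how reads that fit several copies were placed.

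**Figure D1:**
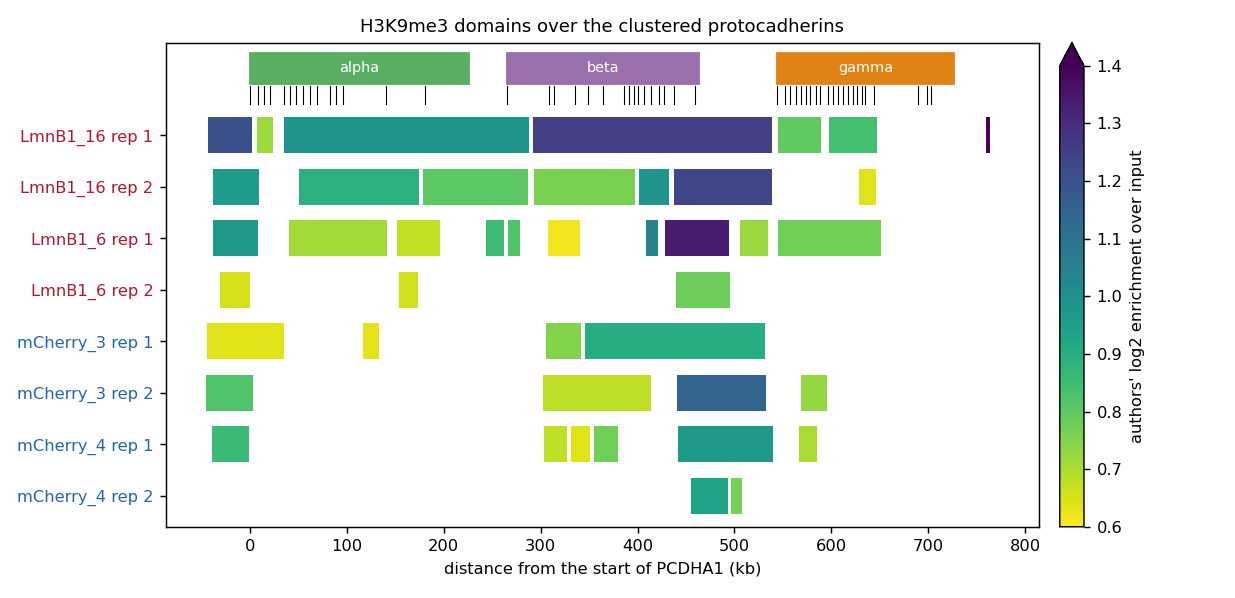
H3K9me3 domains of each library (rows, LmnB1 labels in red and mCherry labels in blue) against distance from the start of PCDHA1 in kb, coloured by the authors' log2 enrichment over input. Coloured boxes at the top span the alpha, beta and gamma clusters and black ticks mark gene starts. Alpha is mostly filled in 3 LmnB1 libraries and mostly empty with mCherry, while the end of beta is filled in all 8 libraries and the end of gamma in none.

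Across the alpha cluster H3K9me3 domains were broad in 3 of the 4 LmnB1 libraries and scarce with mCherry. The cluster spans 226 kb (chr5:140786140-141012347), which is also the whole of the gene PCDHA1. Domains covered 92.9% of it in LmnB1_16 replicate 1, 80.1% in LmnB1_16 replicate 2, 68.0% in LmnB1_6 replicate 1 and 8.84% in LmnB1_6 replicate 2. With mCherry they covered 22.9% and 1.71% in mCherry_3 replicates 1 and 2 and 0 in both mCherry_4 libraries. The groups overlapped, since LmnB1_6 replicate 2 lay below mCherry_3 replicate 1. Mean coverage was 62.5 ± 37.2% with the LmnB1 construct and 6.16 ± 11.2% with mCherry (SD, n = 4 each). The difference was 56.3 percentage points for PCDHA1, with a limma standard error of 22.7 and an adjusted p of 0.907 (Benjamini-Hochberg over 2304 genes), so it was not called.

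Within alpha the stretch at the C-type genes separated the groups most. From the start of PCDHAC1 to the annotated constant region (52.7 kb, chr5:140926299-140978948) domains covered 100%, 92.4%, 81.0% and 38.0% in the LmnB1 libraries and 0 in all 4 mCherry libraries. Every LmnB1 library was above every mCherry library there. Over the alternate genes before it (140 kb) the values were 88.6%, 70.7%, 77.2% and 0 with LmnB1, against 37.0%, 2.75%, 0 and 0 with mCherry, in the order of libraries used above. The constant region itself (33.4 kb) was covered to 100% in both LmnB1_16 libraries, 9.14% in LmnB1_6 replicate 1 and 0 elsewhere. LmnB1_6 replicate 2 had 1 domain in alpha, 20 kb between the starts of PCDHAC1 and PCDHAC2 (chr5:140940001-140960000), with 205 H3K9me3 reads, 144 input reads and an authors' log2 enrichment of 0.66. Those 20 windows of 1 kb were the ones in the region listed by all 4 LmnB1 libraries and by no mCherry library, as were 0.83% of all listed windows in the genome.

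PCDHAC1, a C-type gene of 86049 bp, was covered to 100%, 95.4%, 53.1% and 23.2% with LmnB1 and 0 in every mCherry library. It had the lowest adjusted p of the members (difference 67.9 points, SE 18.4, limma adjusted p = 0.841). PCDHAC2, the C-type gene next to it, was covered to 100%, 100%, 33.8% and 0 with LmnB1 and 0 with mCherry (difference 58.5, SE 24.7, limma adjusted p = 0.907). Here LmnB1_6 replicate 2 was level with mCherry. PCDHA8 and PCDHA7, alternate alpha genes, had the highest differences of the cluster, 69.1 (SE 23.9) and 69.0 (SE 24.0) points. For PCDHA8 the values were 100%, 97.7%, 76.4% and 11.7% with LmnB1, against 9.35%, 0, 0 and 0 with mCherry. PCDHA7 had 100%, 96.2%, 77.3% and 11.2% with LmnB1, against 8.98%, 0, 0 and 0 with mCherry. Limma gave both an adjusted p of 0.907. In both genes the groups were apart, but narrowly, between LmnB1_6 replicate 2 and mCherry_3 replicate 1.

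All 15 alpha genes had a higher mean with LmnB1, by 56.3 to 69.1 points with a median of 67.6, against a median of 3.73 over all 2304 genes tested. These genes are nested and share 1 end, so they are not 15 separate observations. Genes tested needed a mean of at least 5% over the 8 libraries. All alpha genes but PCDHA1 had an mCherry mean below 5% and passed through their LmnB1 libraries, which fixed their direction. In 10 of them, PCDHA5 to PCDHA13 and PCDHAC1, all 4 LmnB1 libraries lay above all 4 mCherry libraries, as did 2.69% of all genes tested. No member had all LmnB1 libraries below all mCherry libraries, as 0.391% of the genes tested had. For those 10 the value of LmnB1_6 replicate 2 came from the same 20 kb domain, and in PCDHA6 to PCDHA13 the highest mCherry value came from 1 domain of 16 kb in mCherry_3 replicate 1 (chr5:140903001-140919000, log2 enrichment 0.63). In PCDHA5 it came from that domain and the end of a domain of 80 kb in the same library (chr5:140742001-140822000). Gene starts do not share their position. The 1 kb window that holds the gene start was listed for 15, 10, 12 and 0 of the 15 alpha genes in the LmnB1 libraries and for 5, 1, 0 and 0 with mCherry, again in that order of libraries. For 8 alpha genes it was listed in 3 LmnB1 libraries and no mCherry library.

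**Figure D2:**
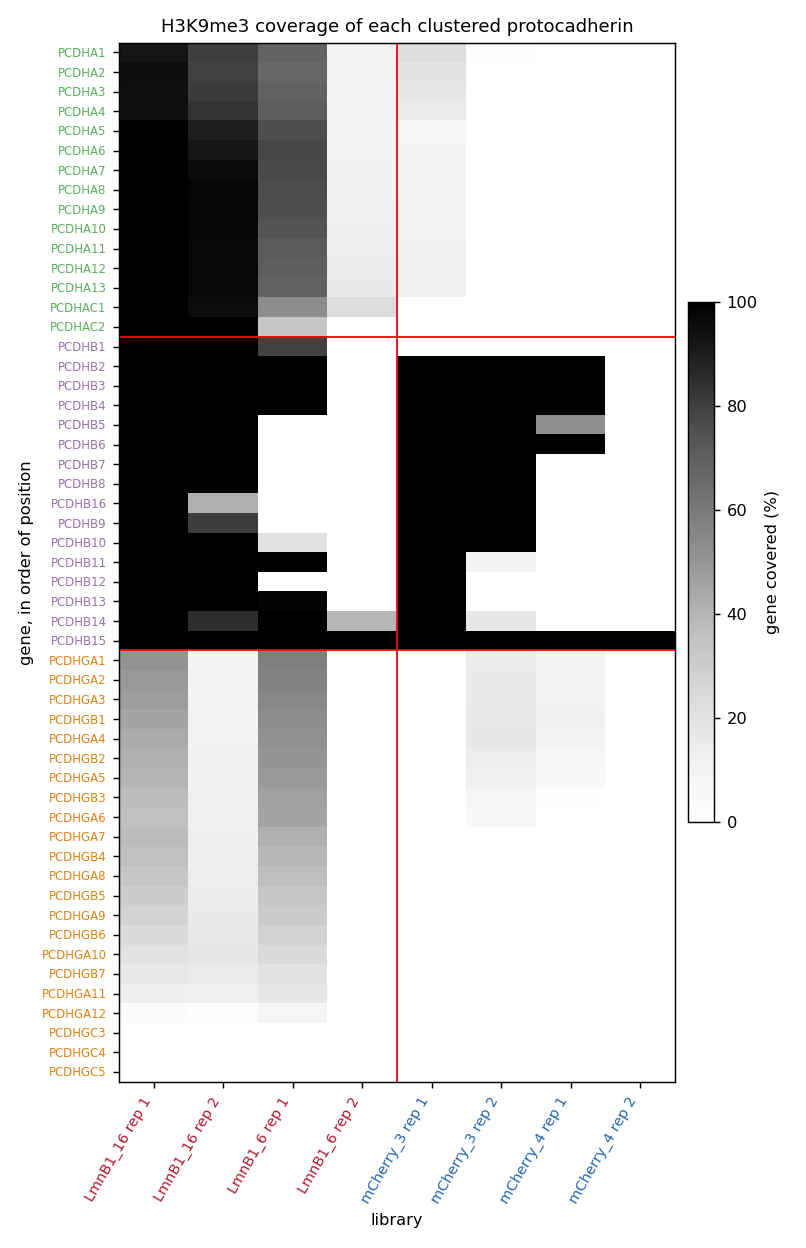
Percent of each of the 53 genes covered by H3K9me3 domains (grey scale, 0 to 100%) in each of the 8 libraries (columns), with genes in order of position and red lines between clusters and between constructs. Alpha genes are dark in 3 LmnB1 columns and pale with mCherry. Most beta genes are dark in the LmnB1_16 and mCherry_3 columns, and fewer in those of LmnB1_6 and mCherry_4. PCDHB15 is dark in all 8 columns, and PCDHGC3, PCDHGC4 and PCDHGC5 are white in all 8.

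The same domains ran on into the space after alpha and over PCDHB1, the first beta gene, which stands apart from the other beta genes. The 39.0 kb between alpha and beta were covered to 100%, 100%, 46.1% and 0 with LmnB1 and 0 in all 4 mCherry libraries. In LmnB1_16 replicate 1 a domain of 253 kb (chr5:140821001-141074000) reached from PCDHA5 to beyond PCDHB1, with 3872 H3K9me3 reads, 2226 input reads and a log2 enrichment of 0.98. PCDHB1 was covered to 100%, 100%, 79.6% and 0 with LmnB1 and 0 in every mCherry library (difference 69.9, SE 27.9, limma adjusted p = 0.907), the highest difference among the 53 genes. LmnB1_6 replicate 2 was level with mCherry for this gene.

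The remaining beta genes were covered whole in LmnB1_16 replicate 1 and mCherry_3 replicate 1, but unevenly in the other libraries of both constructs. The beta cluster (198 kb, chr5:141051374-141249365) was covered to 98.0%, 92.4%, 46.7% and 11.8% with LmnB1, against 77.5%, 67.4%, 44.6% and 4.22% with mCherry. Means were 62.2 ± 40.7% and 48.4 ± 32.5% (SD, n = 4 each), and the difference of 13.8 points was smaller than the spread within either group. Without mCherry_4 replicate 2 it was -0.936 points. Among the 16 beta genes 6 had a higher mean with LmnB1, 4 a lower one and 6 the same, with a median difference of 0. The start window was listed for 16, 14, 6 and 1 of the 16 genes with LmnB1 and for 15, 12, 6 and 1 with mCherry, so the spread within each construct was wider than the gap between constructs.

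The lowest differences were at PCDHB6, PCDHB16 and PCDHB5, alternate genes in the middle of the cluster. PCDHB6 was covered to 100%, 100%, 0 and 0 with LmnB1, against 100%, 100%, 100% and 0 with mCherry, a difference of -25.0 points (SE 41.6, limma adjusted p = 0.932). PCDHB16 was covered to 100%, 42.0%, 0 and 0 with LmnB1, against 100%, 100%, 0 and 0 with mCherry, a difference of -14.5 points (SE 37.3, limma adjusted p = 1). PCDHB5 was covered to 100%, 100%, 0 and 0 with LmnB1, against 100%, 100%, 52.6% and 0 with mCherry, a difference of -13.2 points (SE 37.0, limma adjusted p = 1). In all 3 genes both LmnB1_16 libraries were above both LmnB1_6 libraries, and mCherry_4 replicate 2 was at 0. PCDHB2, PCDHB3 and PCDHB4, named after their values were seen, were covered whole in 6 libraries and at 0 in LmnB1_6 replicate 2 and mCherry_4 replicate 2. PCDHB11, PCDHB13 and PCDHB14, named in the same way, had differences of 47.7, 49.6 and 51.9 points (limma adjusted p = 0.911 each). With mCherry they were covered to 100% in mCherry_3 replicate 1 and to at most 17.2% in the other libraries.

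PCDHB15, the last beta gene, was covered to 100% in all 8 libraries and was the 1 member above 90% in all of them, as were 157 of the 20037 genes. The stretch listed in every library ran for 38 kb from within the end of beta to beyond it (chr5:141241001-141279000). It made up 5.5% of the 691 windows of the region listed in at least 1 library. Over the genome 20.3% of all listed windows were in every library. The authors' log2 enrichment of the domain over PCDHB15 was 1.25, 1.23, 1.34 and 0.78 with LmnB1, against 0.90, 1.15, 0.97 and 0.94 with mCherry, so the groups overlapped. In mCherry_4 replicate 2 that domain held 539 H3K9me3 reads and 328 input reads, and 7.85% of that library's domains scored higher. Before alpha, 29 kb upstream of PCDHA1 (chr5:140756001-140785000) were listed in 7 of 8 libraries, all but mCherry_4 replicate 2.

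Between beta and gamma (81.1 kb) coverage was 93.2%, 93.2%, 74.7% and 40.2% with LmnB1, against 84.6%, 85.8%, 94.4% and 50.1% with mCherry, with means of 75.3 ± 25.0% and 78.7 ± 19.6% (SD, n = 4 each). Protein-coding genes that are no protocadherins lie there. SLC25A2, a mitochondrial ornithine carrier, was covered whole in 6 libraries and at 0 in LmnB1_6 replicate 2 and mCherry_4 replicate 2. TAF7, a subunit of the general transcription factor TFIID, was covered to 100%, 100%, 100% and 0 with LmnB1, against 0, 22.3%, 100% and 0 with mCherry. The genes that flank the clusters were outside the domains, ZMAT2 at 0 in all 8 libraries and the formin gene DIAPH1 at 3.85% in LmnB1_16 replicate 1 and 0 elsewhere.

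**Figure D3:**
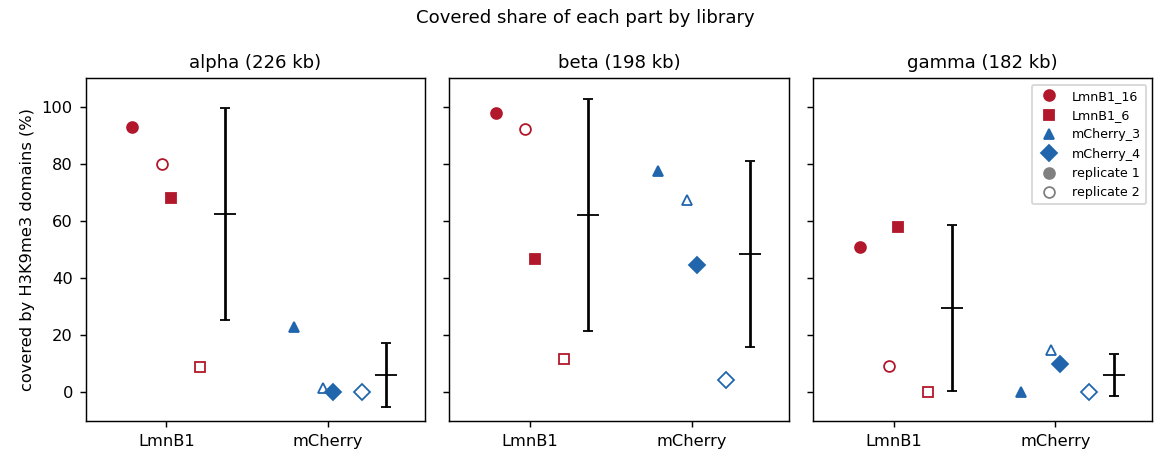
Percent of the alpha, beta and gamma clusters covered by H3K9me3 domains (y axis) in each library (x axis, by construct), with 1 symbol shape per clone, filled for replicate 1 and open for replicate 2. Black bars are means with 1 SD, n = 4 per construct, and can pass 0 or 100%. In alpha 3 LmnB1 libraries lie between 68.0% and 92.9% and all mCherry libraries at 22.9% or below, while in beta the groups overlap throughout.

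In the gamma cluster domains were found in the variable part alone, and in unlike libraries. Gamma (182 kb, chr5:141330514-141512975, the whole of PCDHGA1) was covered to 51.0%, 9.32%, 58.1% and 0 with LmnB1, against 0, 14.8%, 9.87% and 0 with mCherry. Means were 29.6 ± 29.2% and 6.17 ± 7.40% (SD, n = 4 each). For PCDHGA1, the first gamma gene, the difference of 23.4 points had a standard error of 20.9 (limma adjusted p = 0.911), and the groups overlapped. LmnB1_6 replicate 1 had 1 domain of 106 kb here (log2 enrichment 0.77) and its fellow replicate none. The start window was listed for 17, 3, 18 and 0 of the 22 gamma genes with LmnB1 and for 0, 5, 4 and 0 with mCherry. It was listed in 3 LmnB1 libraries and no mCherry library for PCDHGB7, PCDHGA11 and PCDHGA12, the last alternate genes, named after their values were seen.

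PCDHGC3, PCDHGC4 and PCDHGC5, the C-type gamma genes, were at 0 in all 8 libraries, as were 15897 of the 20037 genes. No library listed any window from chr5:141437001-141546000, a run of 109 kb over these genes and the constant end. Among the C-type promoters in the table, those of PCDHAC1 and PCDHAC2 lay in start windows listed by 3 LmnB1 libraries and no mCherry library, and those of PCDHGC3 and PCDHGC4 in windows listed by no library.

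Of the 53 members 40 had a higher mean with LmnB1, 4 a lower one and 9 the same. Tests were run on the 49 members with a mean coverage of at least 5% over the 8 libraries, which left out PCDHGA12, PCDHGC3, PCDHGC4 and PCDHGC5. Of these 49, 39 (79.6%) had a higher mean with LmnB1 and 4 (8.16%) a lower one, against 60.2% and 31.8% of all 2304 genes tested, which thus leaned the same way. Most of the 39 were alpha and gamma genes, which are nested within their clusters. Neither this share nor the counts of members below are therefore over separate observations. The filter also fixed the direction of any member or bin with an mCherry mean below 5%, since it passed through its LmnB1 libraries. PCDHAC1, PCDHAC2 and PCDHB1, for example, were at 0 in every mCherry library. Shares of tested members are thus description and give no support. Without the filter 14.5% of all 20037 genes were higher with LmnB1 and 5.18% lower. Among the 16 beta genes, which stand side by side, 6 were higher, 4 lower and 6 the same. None of the 49 was called higher or lower by limma at an adjusted p below 0.05, where 0.217% of all genes tested were called higher and 0.0868% lower. At an unadjusted p below 0.05 limma gave 15 members higher (14 alpha genes and PCDHB1) and 0 lower, where 3.12% of all genes tested were higher and 0.521% lower. Counting both mCherry_3 libraries as 1 sample left 0 called, where 0.221% of 2260 genes were called higher, and 11 members higher at an unadjusted p below 0.05, as were 2.61% of those genes.

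Leaving out LmnB1_6 replicate 2, the library with the lowest pooled enrichment, changed the calls. Limma then called 19 of 49 members higher, 14 alpha genes, PCDHB1 and the gamma genes PCDHGB6, PCDHGA10, PCDHGB7 and PCDHGA11, and 2.42% of all 2358 genes tested. PCDHB1 had the lowest adjusted p (fitted difference 91.2, SE 5.97, limma adjusted p = 0.00156). PCDHA8 had a fitted difference of 86.9 (SE 7.64, limma adjusted p = 0.00460) and PCDHAC1 one of 78.5 (SE 12.9, limma adjusted p = 0.0459). PCDHAC2 was the alpha gene not called (limma adjusted p = 0.264). This fit leaves 1 library of the clone LmnB1_6, which is assumed to vary like the other clones. Its outcome was known from earlier work on these lists and gives no independent support. A fit of the same form was tried on these covered percents with clones shuffled and known shifts added. For genes and for bins it made more false calls than its nominal rate. The library dropped there was replicate 2 of any clone, so leaving out the weak library itself was not checked. Leaving out any of the other 7 libraries gave 0 members called, with 0.228% to 0.401% of all genes called higher.

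Of the 900 windows of 1 kb over the clusters and their flanks, 691 were listed in at least 1 library. Of these 162 (23.4%) were listed by at least 3 LmnB1 libraries and no mCherry library, against 2.8% of all windows listed in the genome. Alpha held 115 of them, the space between alpha and beta 18, beta 12 and gamma 17. The longest run spanned 66 kb (chr5:140837001-140903000), over the starts of PCDHA8 to PCDHA13. No window was listed by at least 3 mCherry libraries and no LmnB1 library, against 0.453% in the genome. Neighbouring windows share domains and are not separate observations.

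**Figure D4:**
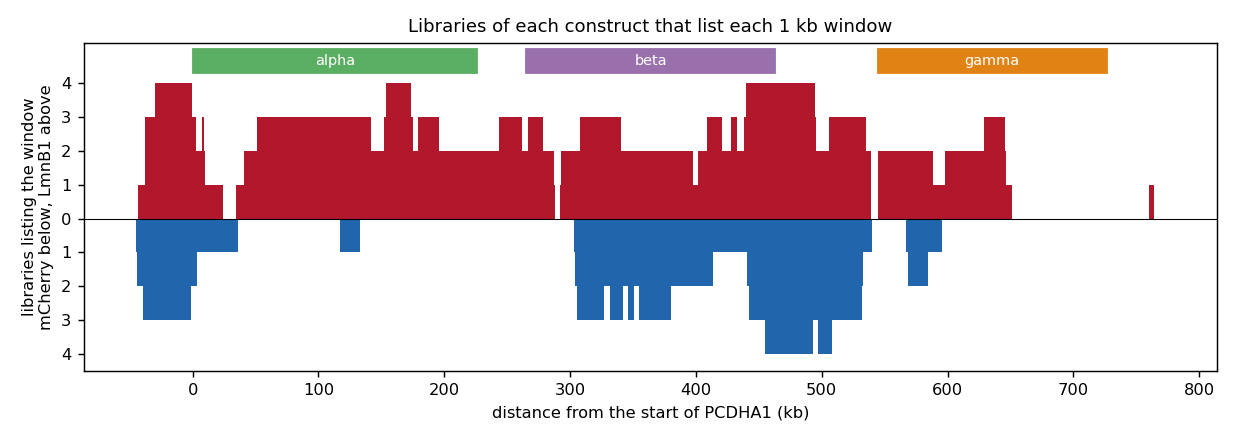
Number of LmnB1 libraries (red, upward) and mCherry libraries (blue, downward) that list each 1 kb window, against distance from the start of PCDHA1 in kb. Over most of alpha 2 or 3 LmnB1 libraries and no mCherry library list a window. The 38 kb from the end of beta into the space after it are listed by all 4 libraries of each construct.

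In 50 kb bins, limma called none of the 15 tested bins of the region higher, where 0.525% of 19055 bins were called higher and 0.0525% lower, and 4 bins were higher at an unadjusted p below 0.05 (2.99% of all bins) and 0 lower (0.504%). All 4 were consecutive, from alpha to the space before beta. The bin over PCDHAC2 (chr5:140950001-141000000) was covered to 100%, 92%, 64% and 20% with LmnB1 and 0 with mCherry, a difference of 69.0 points (SE 19.1, limma adjusted p = 0.597). It was the bin of the region in which the groups were apart, with LmnB1 higher as in 2.54% of all bins, and no bin had all LmnB1 libraries lower, as 0.315% had. Without LmnB1_6 replicate 2 limma called 2 bins higher (1.3% of 19390 bins), that one (adjusted p = 0.0237) and the bin over PCDHA10 to PCDHA13 (chr5:140850001-140900000, adjusted p = 3.5e-06). The latter was at 100% in every LmnB1 library kept and at 0 with mCherry. Its standard error of 1.94 thus does not come from spread within its own groups. In a check with clones shuffled and known shifts added, 58.8% of the bin calls counted were false, against a nominal 5%. The library dropped there was replicate 2 of any clone, so leaving out the weak library itself was not checked.

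The authors' log2 enrichment, listed from 0.6 upward, overlapped between the clusters. It ran from 0.66 to 1.20 for domains touching alpha in the LmnB1 libraries, with 1.20 for a domain that reached into alpha from upstream, and was 0.63, 0.64 and 0.82 in mCherry_3. For domains touching beta it ran from 0.61 to 1.34 with LmnB1 and from 0.64 to 1.15 with mCherry. For those touching gamma it ran from 0.64 to 0.84 with LmnB1 and was 0.73 and 0.70 with mCherry. When domains with a log2 enrichment below 1 were left out, alpha coverage fell to 1.26% in LmnB1_16 replicate 1 and 0 in the other libraries, a difference of 0.316 points. The fall in LmnB1_16 replicate 1 from 92.9% came mostly from its domain of 253 kb, which at 0.98 narrowly missed the limit of 1. With the highest-scoring 50% of each list the alpha difference was 2.39 points, and with lists trimmed to equal covered length it was 18.3, of which LmnB1_16 replicate 2 at 59.2% made up most. Gamma had no coverage in any library under these 3 settings. With a log2 enrichment of at least 1 beta was covered to 86.6%, 12.8%, 23.9% and 0 with LmnB1, against 0, 11.3%, 0 and 0 with mCherry, a difference of 28.0 points. PCDHB15 was then covered whole in 3 LmnB1 libraries and 1 mCherry library, a difference of 50 points (SE 35.3, limma adjusted p = 0.664). The domains over PCDHB15 in mCherry_3 replicate 1 and mCherry_4 replicates 1 and 2 narrowly missed the limit, at 0.90, 0.97 and 0.94. That of LmnB1_6 replicate 2 missed it at 0.78. Beta kept coverage of 86.6%, 28.5%, 23.9% and 11.8% with LmnB1, against 59.3%, 11.3%, 10.8% and 4.22% with mCherry in the highest-scoring 50%, a difference of 16.3 points.

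**Figure D5:**
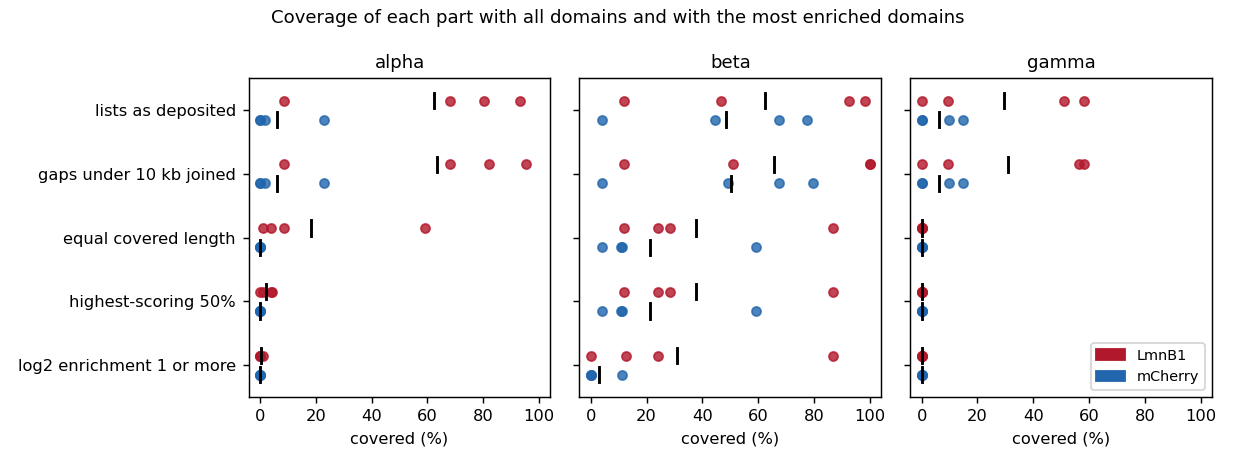
Percent of each cluster covered (x axis) in each library (points, LmnB1 red above mCherry blue, black bars are means of 4) with the lists as deposited, with gaps under 10 kb joined, and with lists reduced to the most enriched domains. The alpha difference of 56.3 points becomes 0.316 when the log2 enrichment must be at least 1, a limit that the 253 kb domain of LmnB1_16 replicate 1 narrowly missed at 0.98, and gamma is empty in the 3 reduced lists.

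Related genes elsewhere in the genome ranged from no coverage to full coverage. Of the 13 non-clustered protocadherins, adhesion proteins encoded by genes of their own, 5 (38.5%) were at 0 in all 8 libraries, against 79.3% of all 20037 genes. Among these 5 were PCDH1 and PCDH12 further along chromosome 5, and PCDH11Y on chromosome Y. Whether these cells carry a Y was not checked. PCDH20 was covered whole in all 8, PCDH17 between 93.1% and 100% and PCDH15, a hair-cell tip-link protein, between 55.8% and 97.6%. Of the 6 tested, limma called none at an adjusted p below 0.05, and none had an unadjusted p below 0.05. Of 19 genes for regulators and partners of the clusters, 15 (78.9%) were at 0 in all 8 libraries, including CTCF, the cohesin gene RAD21 and TRIM28, as were 79.3% of all 20037 genes. ATF7IP, the partner of SETDB1, was covered to 5.10%, 3.64% and 3.64% in the first 3 LmnB1 libraries. SETDB1 stood at 7.80% and the kinase gene PTK2B at 2.01% in LmnB1_16 replicate 1, and the cohesin gene STAG1 at 1.68% there and 2.16% in LmnB1_6 replicate 1. None of the 19 was tested, since all were below a mean of 5%.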

How the data were processed

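Per the labels' protocols, Cut&Run used the H3K9me3 antibody ab8898, EpiCypher's CUTANA method and NEBNext Ultra II libraries. The series has 9 samples, of which 8 are H3K9me3 libraries with 1 domain list each and 1 is an input from wild-type cells that enters only through the input reads of the lists. The submitters' processing notes name SICER, deepTools, DESeq2 and DiffBind 3.0.15, and as builds hg38 and GRCh38, without the role of each. The sources used here do not give the aligner. Per domain the authors deposited read counts for H3K9me3 and for input. They also deposited a p-value with an adjusted p-value, the log2 enrichment over input, and a score equal to 100 times that log2 value. The log2 values are the authors' own and served to describe and filter domains. Counts exist only for a library's own domains, so no count model was run.

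Covered percent was computed per library for genes, clusters, 1 kb windows and 50 kb bins. Gene positions came from RefSeq on GRCh38.p14, without exons. Genes and bins with a mean of at least 5% were tested in R 4.3.3 with limma 3.58.1 (clone as random block, p-values adjusted by Benjamini-Hochberg, threshold 0.05) over all 2304 genes or 19055 bins. Differences are LmnB1 minus mCherry, in percentage points. The p-values rest on 2 clones per construct. Coverage was checked on intervals with known answers. Limma was checked on the covered percents of these lists, with clones shuffled within each gene or bin and known shifts added to 200 of them. False calls were counted where each group held clones of both constructs, and true calls over all 200 shifted genes or bins. With all 8 libraries 20.9% of the gene calls so counted and 56.7% of the bin calls were false, against a nominal 5%. With the place of LmnB1_6 replicate 2 dropped after the shuffle these shares were 22.0% and 58.8%. That place held replicate 2 of any clone, so these shares do not describe leaving out the weak library. Alternatives were stricter or joined lists, no filter, centred libraries, other blocks, the first 3 kb of genes and each library left out. Counting the mCherry_3 pair as 1 sample was chosen after seeing the data. Genes named were the first and last of each cluster, the C-type genes, the 3 highest and 3 lowest differences and the neighbours in the window. The members and lists were chosen with earlier results of these data known. Python 3.11.15, numpy 2.4.6, pandas 2.3.3 and matplotlib 3.10.9 were used.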

Additional observations from a re-analysis of the deposited data

Results flagged for a closer look

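Among 34 groups of 4 libraries, 5 had a library far from its fellows by Dixon's test, which nominally flags about 1 in 20 by chance. Covered percent often sits at 0 or 100%. Where the other libraries of a group are level, any different value is flagged, as for PCDHA7, PCDHA8 and PCDHB6 (ratio 1). Groups also share values, so 5 of 34 cannot be set against 1 in 20. In the mCherry group the alpha cluster, and with it PCDHA1, was covered to 22.9% in mCherry_3 replicate 1 and to at most 1.71% in the other mCherry libraries. The same library stood out for PCDHA7 at 8.98% and for PCDHA8 at 9.35%, with the other mCherry libraries at 0. These 4 flags come from 2 domains of 1 library, at log2 enrichments of 0.64 and 0.63, just above the limit of the lists. For PCDHB6 the mCherry library that stood out was mCherry_4 replicate 2 at 0, with the others at 100%.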

How the results depend on the processing

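Leaving out each library in turn gave 0 to 19 members called higher by limma and 0 to 2 bins, with 19 and 2 without LmnB1_6 replicate 2. With each library left out, the alpha difference in group means, which is not fitted, ran from 46.2 to 74.2 points. The gamma difference ran from 13.9 to 33.3 and the beta difference from -0.936 (without mCherry_4 replicate 2) to 30.6. With a log2 enrichment of at least 1 the alpha difference was 0.316, with the highest-scoring 50% it was 2.39 and at equal covered length 18.3, while gamma was 0 in all 3. At a log2 enrichment of at least 1 PCDHB5, PCDHB6 and PCDHB16 had a difference of 25.0 each (limma adjusted p = 0.664). This turned from the lower mean in the full lists. Over these genes only the 247 kb domain of LmnB1_16 replicate 1 (log2 enrichment 1.25) passed that limit, so each difference rests on 1 library. PCDHB15 moved from 0 to 50 at that limit and beta from 13.8 to 28.0. The domains over PCDHB15 in mCherry_3 replicate 1 and both mCherry_4 libraries lay just below it, at 0.90, 0.97 and 0.94. Under every other setting 0 members were called, and the lowest adjusted p of a member ran from 0.397 to 1. Same-numbered replicates of different clones did not deviate together (correlations from -0.0245 to 0.0987). Replicate 2 was still the weaker library in every clone. Its pooled log2 enrichment was 0.95, 0.71, 0.88 and 0.72 in LmnB1_16, LmnB1_6, mCherry_3 and mCherry_4, against 1.14, 0.93, 0.89 and 0.86 in replicate 1. Whether library strength goes with replicate number was not tested. A replicate block gave 0 members called (0.217% of all genes were called higher) and 0 bins (0.472% of all bins). Under it 14 members were higher at an unadjusted p below 0.05 (2.39% of all genes). The lists limit what can be seen, since stretches with a log2 enrichment under 0.6 carry no values.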
